A study of Mus musculus with 4 samples.

Results

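Major histocompatibility complex (MHC) class I antigen presentation was followed in cultured mouse pancreatic fibroblasts through 10 genes chosen by symbol, H2-K1, H2-D1, B2m, Tap1, Tap2, Tapbp, Psmb8, Psmb9, Psmb10 and Nlrc5, out of 38921 gene intervals in the deposited tables. Each of the 10 symbols had a single row, and all 10 passed the filter on low counts. The study sequenced poly-A RNA of 4 libraries of pancreatic fibroblasts, 2 from KPC mice and 2 from wild type mice, and compared the genotypes. Both groups are given as pancreas tissue of a mixed strain background, and the cells were grown in DMEM with FBS after gravity separation. No age or further treatment is given. KPC mice are widely used to study pancreatic cancer and commonly carry Cre under the Pdx1 promoter. The labels name KPC without listing alleles. That Cre is meant to act in the epithelial lineage of the pancreas, and whether it acted in the cultured cells was not tested.

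Class I molecules show peptides from inside the cell to CD8 T cells and are found on nearly all nucleated cells. Cytosolic proteins are cut by the proteasome, whose 3 catalytic subunits are replaced under interferon-gamma by the immunoproteasome subunits encoded by Psmb8, Psmb9 and Psmb10. The transporter Tap1-Tap2 carries the peptides into the endoplasmic reticulum, tapasin (Tapbp) holds the empty class I molecule at the transporter, and a loaded heavy chain (H2-K1 or H2-D1) leaves for the surface with beta-2-microglobulin (B2m). Nlrc5 is a transcriptional activator of these genes. Fibroblasts usually hold this machinery at a low to moderate level that interferons raise.

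The promoters of the heavy chain genes and B2m are known for paired binding sites of NF-kappaB and of interferon regulatory factors, so their sequences are shown before the values. The 250 bases before the RefSeq start (GRCm38.p6) are shown for H2-K1 on the minus strand (chr17:34000348-34000597) and for B2m on the plus strand (chr2:122147437-122147686), with capitals marking each match to the interferon regulatory factor core AANNGAAA or to the NF-kappaB-like pattern GGNNTTNCC on either strand.
H2-K1: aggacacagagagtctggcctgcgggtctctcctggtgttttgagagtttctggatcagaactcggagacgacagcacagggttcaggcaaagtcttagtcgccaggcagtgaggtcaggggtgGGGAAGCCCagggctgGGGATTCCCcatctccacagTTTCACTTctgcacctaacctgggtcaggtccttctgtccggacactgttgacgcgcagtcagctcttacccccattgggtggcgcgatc
B2m: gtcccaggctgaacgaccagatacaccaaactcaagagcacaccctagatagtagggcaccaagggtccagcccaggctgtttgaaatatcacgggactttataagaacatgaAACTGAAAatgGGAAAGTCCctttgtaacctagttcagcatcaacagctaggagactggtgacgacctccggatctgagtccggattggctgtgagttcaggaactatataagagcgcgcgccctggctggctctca

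The paired element is nearly the same in both heavy chain genes, which is why it is set side by side here at a length of 28 bases (chr17:34000430-34000457, minus strand, for H2-K1 and chr17:35262924-35262951, plus strand, for H2-D1).
H2-K1 element: GGGATTCCCcatctccacagTTTCACTT
H2-D1 element: GGGATTCCCcatctcctcagTTTCACTT
The H2-D1 element differed from that of H2-K1 by A17T, counted from 1 at the 5′ end of the H2-K1 element, and both marked matches were the same. RefSeq windows of 300 bases (250 before to 50 after the start) were matched for 8 of the 10 genes, with no entry for Tap2 and Nlrc5. Over these 8 windows, searched on both strands and with overlaps between motifs allowed, AANNGAAA was in 3 (H2-K1, H2-D1 and B2m), GGNNTTNCC in the same 3, the NF-Y box CCAAT in 6 and the CRE half-site TGACG in 5. The shares of 27018 gene promoters of the same length that held them were 24.3% for AANNGAAA, 15.9% for GGNNTTNCC, 37.8% for CCAAT and 20.7% for TGACG. The patterns were chosen with these promoters in view, so their presence is a description. The windows of Psmb9 (minus strand) and Tap1 (plus strand) shared 275 bases, since their RefSeq starts lie 226 bases apart and the genes run in opposite directions. Both genes are among those counted for CCAAT and TGACG, and a match in the shared stretch counts for both. RefSeq starts need not be those of the deposited intervals. The deposited Psmb9 interval reaches 34187764, beyond the Tap1 start at 34187553. The windows of H2-D1, Tapbp and Psmb8 lie wholly within their deposited intervals.

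The counts summed to 57926327 and 68312367 in KPC replicates 1 and 2 and to 53232634 and 22302141 in wild type replicates 1 and 2. Levels are CPM (counts scaled to the library total) after TMM scaling, and tests are two-sided edgeR quasi-likelihood tests over 23046 rows, with Benjamini-Hochberg adjustment at 0.05. No row passed (0% of those tested), and 1999 rows (8.67%) had an unadjusted p under 0.05; limma voom called 0 rows and DESeq2 627 (2.72%; 1.44% higher and 1.28% lower in KPC). Whether the biological replicates of the labels are separate animals is not given there. A p-value sets the difference between groups against the spread between sequenced libraries, which the fit moderates over all tested rows. That spread need not be the spread between animals. Of the listed fibroblast markers, all 12 were tested and summed to 14690 and 16442 CPM in KPC and 15746 and 16012 CPM in wild type. These sums hide differences by gene: log2 fold changes ran from -1.96 to 1.41, with 7 positive and 5 negative. The libraries were not pure by their markers. The 16 matched macrophage and leukocyte markers summed to 1187 and 2358 CPM in KPC and 77.0 and 285 CPM in wild type, and the 12 endothelial markers to 46.8 and 98.8 CPM in KPC and 1003 and 165 CPM in wild type. Among epithelial and ductal markers the 12 summed to 1346 and 508 CPM in KPC and 42.8 and 446 CPM in wild type, and the 8 endocrine markers to 0.656 and 1.43 CPM in KPC and 2.10 and 949 CPM in wild type. Lymphocyte markers (9 genes) summed to at most 5.53 CPM in any library, and acinar markers (8 genes) to at most 9.24 CPM. In bulk RNA, fewer cells of a type and less RNA per cell cannot be told apart, and the part of these other cells in the results below was not tested except where a value is given.

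The 10 genes did not differ in a common direction between KPC and wild type cultures. Psmb8, the chymotrypsin-like immunoproteasome subunit, was the most different at 2.85-fold the wild type level, H2-K1 was 1.17-fold, B2m 0.709-fold and Tap1 0.632-fold. The log2 fold change was positive in 6 genes and negative in 4, with a median of 0.17 against -0.01 over all tested rows, of which 48.8% were positive. None of the 10 passed edgeR, limma voom or DESeq2 (called in 0%, 0% and 2.72% of all tested rows; smallest adjusted p 0.537, 0.493 and 0.212, each for B2m), and B2m alone had an unadjusted edgeR p under 0.05 (8.67% of all tested rows). The KPC and wild type libraries did not overlap in 5 genes, 2 higher (H2-K1, Psmb8) and 3 lower (B2m, Tap1, Tap2) in KPC, where the groups did not overlap in 41.1% of all tested rows (20.6% higher, 20.5% lower). A share of 5 in 10 is near that background.

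**Figure D1:**
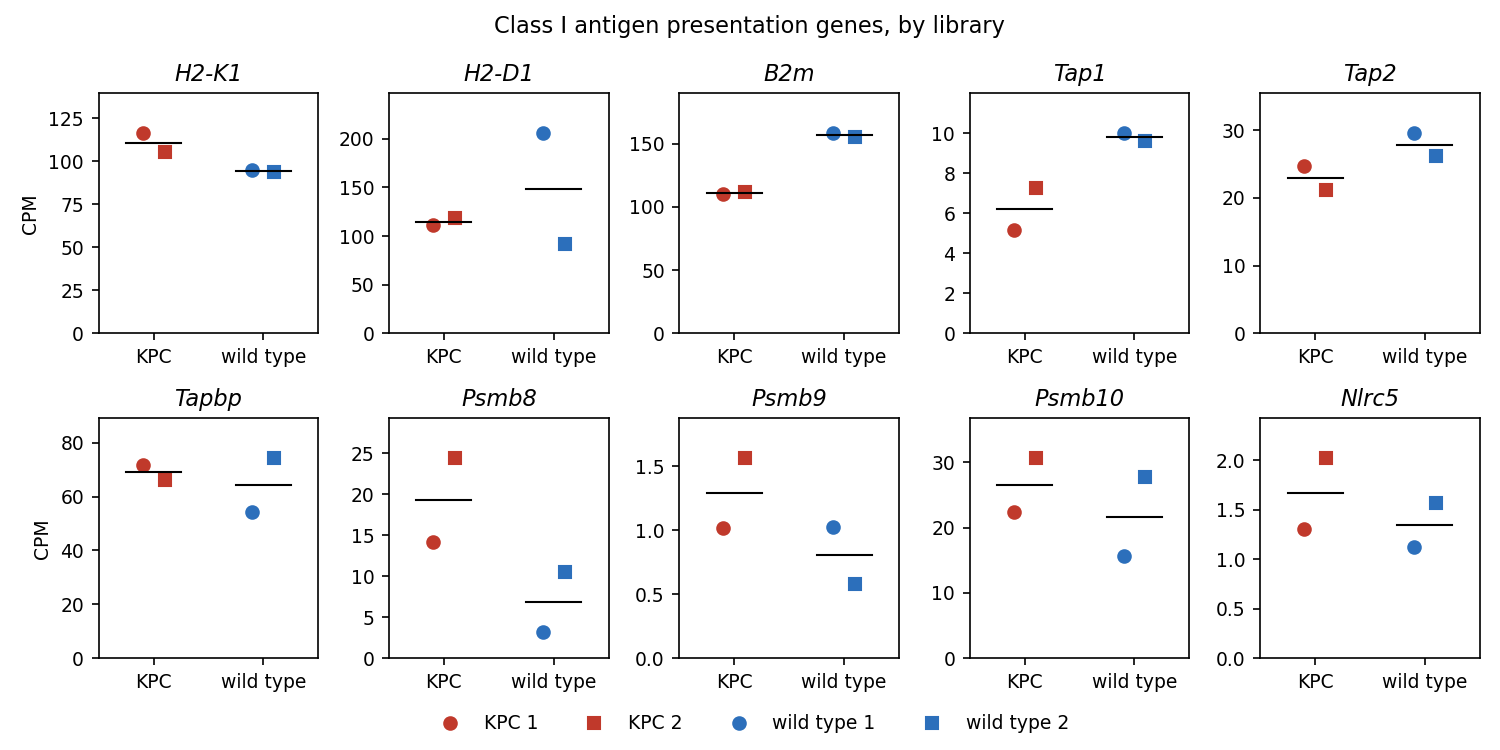
CPM after TMM scaling (y axis, from 0) of each of the 10 class I genes in the 2 KPC and the 2 wild type libraries; circles are replicate 1, squares replicate 2 and bars group means. The groups are apart in H2-K1, B2m, Tap1, Tap2 and Psmb8, and H2-D1 stands high in wild type replicate 1 alone (205 CPM).

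**Figure D2:**
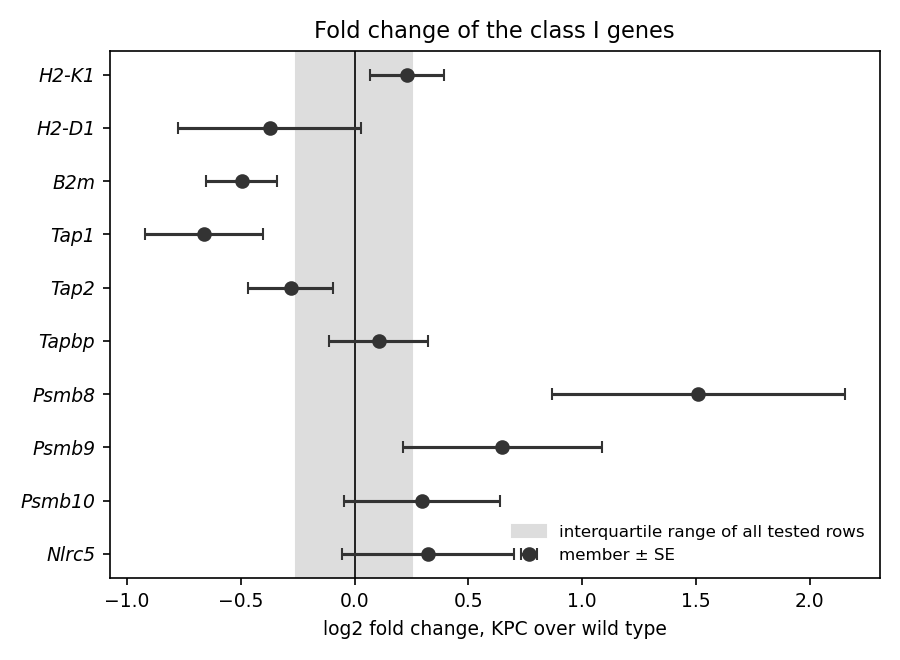
Log2 fold change of KPC over wild type (x axis) for each gene with its standard error; the grey band is the interquartile range of all 23046 tested rows (-0.26 to 0.25). Psmb8 lies furthest to the right at 1.51 and Tap1 furthest to the left at -0.66.

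The heavy chain gene H2-K1 (chr17:33996017-34000333 as deposited, mm10) encodes the K molecule that presents peptides to CD8 T cells. It stood at 116 and 105 CPM in KPC and at 94.6 and 93.8 CPM in wild type. Both KPC libraries were above both wild type libraries, by a small margin. Its log2 fold change was 0.23 ± 0.16 (SE; n = 2 libraries each; adjusted p = 0.726 in the edgeR quasi-likelihood test).

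H2-D1 (chr17:35262730-35267499), the D heavy chain, stood at 111 and 119 CPM in KPC and at 205 and 92.2 CPM in wild type. The KPC values lay between those of the wild type libraries, which differed 2.23-fold from each other. The log2 fold change was -0.37 ± 0.40 (SE, n = 2 each; edgeR adjusted p = 0.833), and it was 0.32 without wild type replicate 1 and -0.84 without wild type replicate 2. The ratio of H2-K1 to H2-D1 counts within a library was 1.05 and 0.884 in KPC and 0.461 and 1.02 in wild type. Wild type replicate 1 thus held about as much H2-K1 as its partner library but more H2-D1. It is also the library with 1003 CPM of endothelial markers, and a link between these values was not tested.

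Heavy chain genes are hard to tell apart by short reads. Reads counted alone in a row most often covered 37 bases, and of the 37-base windows of the longest coding transcript, 17.1% in H2-K1 and 22.6% in H2-D1 also occurred in a transcript of another gene, on either strand. They shared 208 windows with each other, and H2-Q1, H2-Q7 and H2-Q6 were the next closest to H2-D1. The tested rows of 15 further class I genes (H2-Q, H2-T and the like) stood from 0.741 to 1.78 times as high in wild type replicate 1 as in replicate 2, with a median of 1.43 and 12 of 15 above 1, while the median over all tested rows was 1.01. Most of these rows leaned the way of H2-D1. Whether reads of H2-D1 were counted in them was not tested. The strain is mixed and the H2 haplotype of each library is not given, and its effect on read placement was not tested either.

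**Figure D3:**
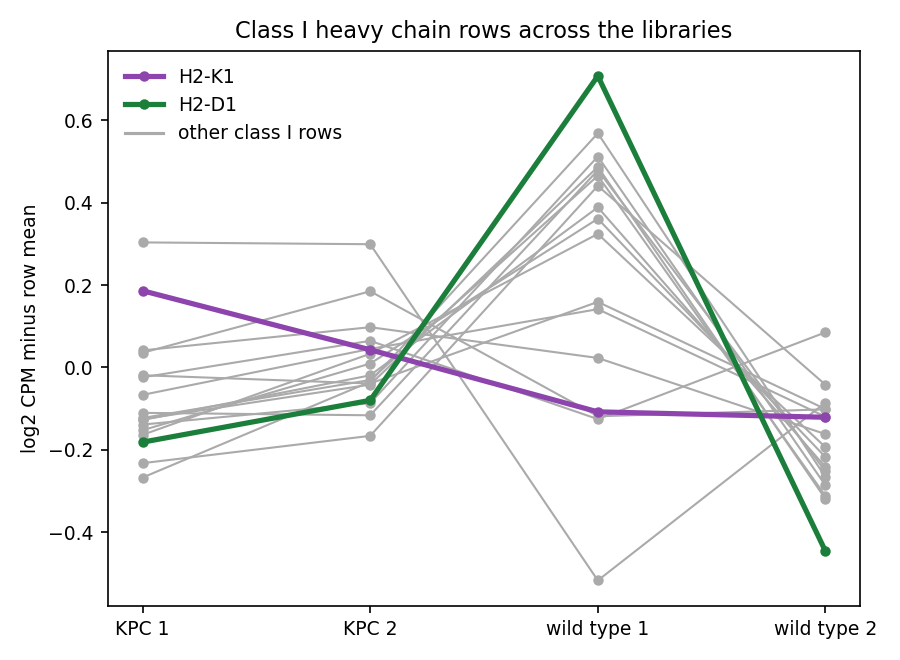
Log2 CPM of each class I heavy chain row minus its own mean over the 4 libraries (y axis), by library; each line joins the values of 1 row and grey lines are the 15 further class I rows. H2-D1 and most grey rows peak in wild type replicate 1, where H2-K1 does not.

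Among the non-classical genes, 13 of 13 listed were tested, 5 had a positive and 8 a negative log2 fold change, 0 had an unadjusted p under 0.05, and their median was -0.15. H2-M3, which presents formylated peptides, stood at 5.92 and 5.90 CPM in KPC and 3.35 and 4.52 CPM in wild type, a log2 fold change of 0.59 ± 0.27 (SE, n = 2 each; edgeR adjusted p = 0.614). H2-T10 had a negative log2 fold change, at 20.3 and 21.2 CPM in KPC against 32.3 and 23.1 CPM in wild type. H2-Q4 and H2-Q1 were highest in wild type replicate 1, at 37.8 and 45.7 CPM.

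B2m (chr2:122147686-122153083), the invariant light chain without which class I does not reach the surface, stood at 110.1 and 112 CPM in KPC and at 158 and 155 CPM in wild type. Both groups were tight, and both KPC libraries were below both wild type libraries. The log2 fold change was -0.50 ± 0.16 (SE, n = 2 each) with an edgeR p of 0.0267 before and 0.537 after adjustment over all rows. It lay between -0.56 and -0.47 over all normalizations, filters, tests and left-out libraries that were tried. None of its 37-base windows occurred in another gene's transcript. The interval of Patl2 spans all of B2m, and its counts came to between 102% and 103% of those of B2m in the 4 libraries.

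The transporter genes were both lower in KPC libraries, and neither passed the test. Tap1 (chr17:34187553-34197225) stood at 5.15 and 7.24 CPM in KPC and at 9.99 and 9.62 CPM in wild type. The groups did not overlap, and the wild type pair lay closer together than the KPC pair. On the log2 scale the fold change was -0.66 ± 0.26 (SE; edgeR adjusted p = 0.580), -0.43 without KPC replicate 1 and -0.93 without KPC replicate 2. Tap2 (chr17:34203527-34216321), its partner subunit in the transporter, stood at 24.8 and 21.1 CPM in KPC and at 29.5 and 26.2 CPM in wild type. Here the gap between the nearest KPC and wild type libraries was smaller than the spread within either group, and the log2 fold change was -0.28 ± 0.19 (SE; edgeR adjusted p = 0.711), and -0.17 without KPC replicate 2. Gm15821 overlaps 3147 bases of Tap2 and its row held between 31.2% and 33.7% of the Tap2 count in every library. Gm20496 overlaps Tap2 over 1922 bases, and its row held 56.2% and 107% of the Tap2 count in KPC and 14.2% and 39.8% in wild type. This share was uneven over the libraries and larger in KPC. It counts the whole Gm20496 row, which also overlaps Psmb8 over 2138 bases, so it does not give the reads within the Tap2 overlap. Of the 37-base windows of Tap2, 3.05% also occurred in a transcript of Gm20496 and 11.4% in one of Gm15821.

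Tapasin (Tapbp, chr17:33915899-33929288), the bridge between transporter and heavy chain, stood at 71.8 and 66.2 CPM in KPC and at 54.1 and 74.2 CPM in wild type. The wild type libraries enclosed the KPC values, with a log2 fold change of 0.11 ± 0.22 (SE, n = 2 each; edgeR adjusted p = 0.930). The deposited interval also spans Zbtb22, whose own row held 19.8% and 18.7% of the Tapbp count in KPC and 25.3% and 10.4% in wild type. With those counts taken off, a choice made after the data were seen, the log2 fold change was 0.06.

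Of the immunoproteasome genes, Psmb8 (chr17:34197721-34201454) varied most over the libraries. It stood at 14.2 and 24.4 CPM in KPC and at 3.14 and 10.6 CPM in wild type. The groups did not overlap, but the wild type libraries differed 3.36-fold from each other and the KPC libraries 1.72-fold. On average the log2 fold change was 1.51 ± 0.64 (SE; edgeR adjusted p = 0.601). It ran from 0.87 without wild type replicate 1 to 2.62 without wild type replicate 2, where the adjusted p was 0.0534.

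The order of the libraries for Psmb8 was that of the summed macrophage and leukocyte markers. Both were highest in KPC replicate 2, then KPC replicate 1, then wild type replicate 2, and lowest in wild type replicate 1. Psmb9 and Psmb10 did not share this order of the libraries. Among those markers, all 16 tested were higher in both KPC libraries (20.6% of all tested rows), 15 had an unadjusted p under 0.05 (4.73% of all tested rows on the higher side) and the median log2 fold change was 2.99, with the receptor tyrosine phosphatase gene Ptprc (CD45) at 3.89 and 7.65 CPM in KPC and 0.875 and 1.21 CPM in wild type. Mrc1, the macrophage mannose receptor gene, stood at 31.5 and 26.4 CPM in KPC and at 1.67 and 4.43 CPM in wild type. Within KPC, Mrc1 was thus higher in replicate 1, against the order of the sum, while Ptprc followed that order. The shared order is that of the sum and not of each marker. None of the 16 was at 0 counts in any library. Leukocytes express the immunoproteasome without interferon, and the part of such cells in the Psmb8 values was not tested. Psmb8 overlaps the antisense gene Gm20496 over 2138 bases, or 57.3% of the interval, and 7.41% of the 37-base windows of its transcript also occurred in one of Gm20496. Without strand in the counts, reads in the overlap cannot be assigned to one of the pair. The Gm20496 row held 818 and 1528 counts in KPC and 221 and 233 in wild type. These came to 98.0% and 92.3% of the Psmb8 count in KPC and 134% and 98.7% in wild type. They count the whole Gm20496 row, and how many of its reads were also counted for Psmb8 was not tested.

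Psmb9 (chr17:34181988-34187764), the immunoproteasome subunit that takes the place of Psmb6, was near the limit of the depth. It had 60 and 106 counts in KPC and 54 and 13 in wild type, or 1.02 and 1.56 CPM in KPC and 1.03 and 0.581 CPM in wild type. The groups overlapped. The 13 counts of wild type replicate 2 have an exact 95% Poisson interval of 0.31 to 0.994 CPM, which covers counting error only. The log2 fold change was 0.65 ± 0.44 (SE, n = 2 each; edgeR adjusted p = 0.713). It was 0.31 without KPC replicate 2, 0.33 without wild type replicate 2 and 1.15 without wild type replicate 1.

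Psmb10 (chr8:105935728-105938392), the trypsin-like subunit, stood at 22.5 and 30.6 CPM in KPC and at 15.7 and 27.7 CPM in wild type. The groups overlapped, and replicate 2 was the higher library in each. KPC over wild type gave a log2 fold change of 0.29 ± 0.34 (SE, n = 2 each; edgeR adjusted p = 0.851), and it was -0.06 without wild type replicate 1. The antisense gene Gm16156 spans all of Psmb10 and its row held 317% to 543% of the Psmb10 count. None of the 37-base windows of the Psmb10 transcript occurred in a transcript of another gene, and how many reads were counted in both rows was not tested.

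The constitutive subunits that these replace were within the spread of the wild type libraries or close to it. Psmb5, the counterpart of Psmb8, stood at 152 and 146 CPM in KPC and 104 and 150.3 CPM in wild type (log2 fold change 0.23 ± 0.23, SE). Psmb6, the counterpart of Psmb9, stood at 98.6 and 106 CPM in KPC and 84.6 and 112 CPM in wild type (0.06 ± 0.21). Psmb7, the counterpart of Psmb10, stood at 283 and 276 CPM in KPC and 224 and 293 CPM in wild type (0.11 ± 0.20).

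Set as ratios of counts within each library, which no scaling between libraries touches, Psmb8 to Psmb5 was 0.0932 and 0.167 in KPC and 0.0301 and 0.0702 in wild type. These groups did not overlap. Psmb9 to Psmb6 was 0.0103 and 0.0147 in KPC and 0.0121 and 0.00520 in wild type, and Psmb10 to Psmb7 was 0.0793 and 0.111 in KPC and 0.0698 and 0.0946 in wild type. Both of those ratios overlapped between the groups. Psmb9 to Tap1, the pair with overlapping promoter windows, was 0.198 and 0.216 in KPC. It was 0.103 and 0.0605 in wild type, so the groups did not overlap. The deposited intervals of Psmb9 and Tap1 share 211 bases, and reads there cannot be assigned to either gene without strand. Of the read-length windows of the Psmb9 transcript, 13.4% also occurred in one of Tap1. The part of such reads in this ratio was not tested. No test was run on any of the ratios given here, which were chosen after the values were seen. How often ratios of other gene pairs keep the groups apart was not tested.

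**Figure D4:**
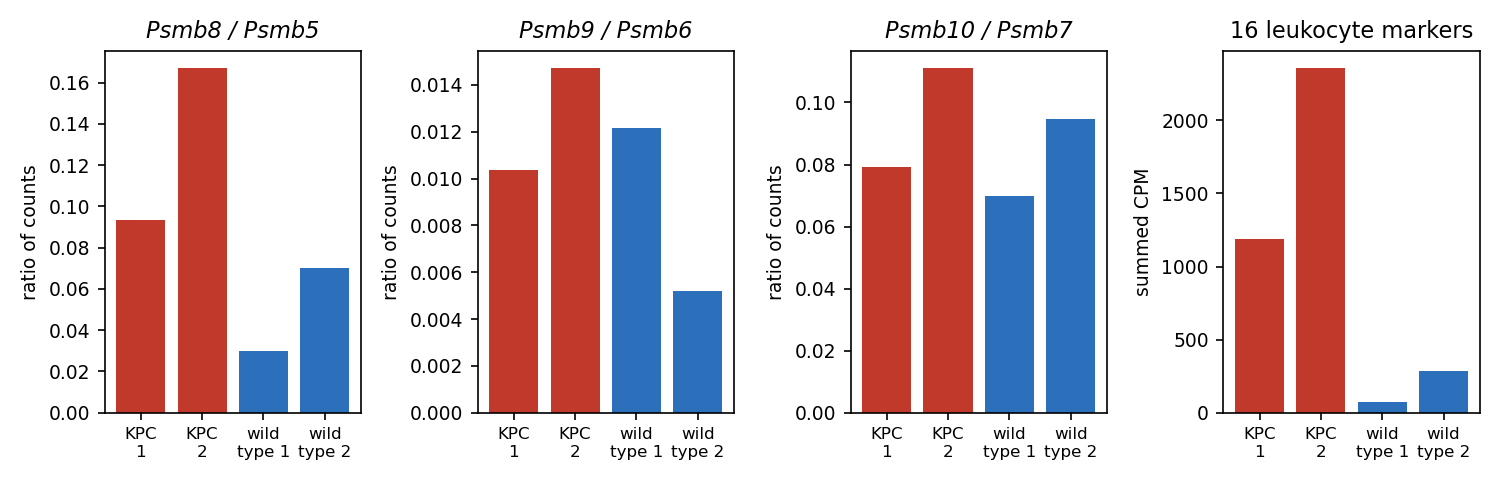
Bars, from 0, give the ratio of the count of an immunoproteasome gene to that of its constitutive counterpart (first 3 panels) and the summed CPM of 16 macrophage and leukocyte markers (last panel) in KPC replicates 1 and 2 (red) and wild type replicates 1 and 2 (blue). Psmb8 to Psmb5 is highest in KPC replicate 2 (0.167) and lowest in wild type replicate 1 (0.0301). The sum of the markers is highest and lowest in the same libraries (2358 and 77.0 CPM). Single markers can differ from the sum, as Mrc1 does within KPC.

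The other 11 subunits of the 20S core, which both kinds of proteasome share, had a median log2 fold change of 0.07, with 6 positive, 5 negative and 0 at an unadjusted p under 0.05. Psma5 was the furthest from 0, at 73.2 and 57.0 CPM in KPC and 48.5 and 53.5 CPM in wild type. Among peptide loading and trimming partners, 10 of 10 were tested, 7 were positive and 3 negative, and 2 had an unadjusted p under 0.05, both higher in KPC, where 4.73% of all tested rows were. These were Erap1, which trims peptides in the endoplasmic reticulum, at 12.3 and 11.6 CPM in KPC and 6.68 and 8.01 CPM in wild type (log2 fold change 0.70 ± 0.21, SE; edgeR adjusted p = 0.528), and Psme1, a subunit of the PA28 proteasome activator, at 28.5 and 26.1 CPM in KPC and 16.1 and 19.8 CPM in wild type (0.61 ± 0.19; 0.537). Its partner Psme2 stood at 41.4 and 43.2 CPM in KPC and 30.0 and 38.2 CPM in wild type, and Tpp2, a cytosolic peptidase, at 23.6 and 19.8 CPM in KPC and 29.4 and 24.2 CPM in wild type. The median of the list was 0.05.

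Nlrc5 (chr8:94472763-94527272), the activator of class I genes, was the lowest of the 10 in CPM per kilobase of exon. It had 77 and 137 counts in KPC and 59 and 35 in wild type, or 1.31 and 2.02 CPM in KPC and 1.12 and 1.57 CPM in wild type. The groups overlapped, and the log2 fold change was 0.32 ± 0.38 (SE, n = 2 each; edgeR adjusted p = 0.851), with -0.03 without KPC replicate 2. The reads covered at most 5.80% of its 54509-base interval, most of which is intron, in any library. The annotated gene begins at 94434356, before that interval. The level per kilobase used all 8120 exon bases of the annotated gene, so any exon outside the interval makes it too low. How many exon bases lie outside was not tested.

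Of 23 regulators of class I transcription, all tested, 13 were positive and 10 negative, with a median log2 fold change of 0.04. An unadjusted p under 0.05 was reached by 2, both higher in KPC, where 4.73% of all tested rows were (8.67% in either direction), so the count is near the background. Irf8, an interferon regulatory factor of myeloid cells, stood at 4.06 and 8.21 CPM in KPC and 0.989 and 1.74 CPM in wild type (log2 fold change 2.19 ± 0.51, SE; edgeR adjusted p = 0.409; DESeq2 adjusted p = 0.00751). Irf8 is a leukocyte gene, and the markers of those cells were higher in the same libraries. The part of such cells in the Irf8 values was not tested. Socs1, an inhibitor of interferon signalling, stood at 1.89 and 1.33 CPM in KPC and 0.761 and 0.760 CPM in wild type. The kinase gene Jak2 stood at 28.3 and 29.3 CPM in KPC and 19.8 and 23.5 CPM in wild type, and the receptor gene Ifngr1 at 11.3 and 12.5 CPM in KPC and 12.9 and 17.0 CPM in wild type.

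Interferon-stimulated genes, which share their inducer with class I, gave a median of -0.04 over 21 tested of 22 listed, with 10 positive and 11 negative. Of these, 0 had an unadjusted p under 0.05 on the higher side and 1 on the lower side, where 3.94% of all tested rows were. The gene on the lower side was Irgm1, an interferon-inducible GTPase gene, at 11.2 and 10.6 CPM in KPC and 25.8 and 20.1 CPM in wild type (log2 fold change -1.08 ± 0.21, SE, n = 2 each; edgeR adjusted p = 0.346; DESeq2 adjusted p = 0.00448). Ifit2 stood at 3.14 and 3.67 CPM in KPC and 5.57 and 4.87 CPM in wild type, and Ifit3 at 1.87 and 2.57 CPM in KPC and 3.73 and 3.18 CPM in wild type. Mx1, an interferon-induced antiviral GTPase gene, had the highest log2 fold change of the list, 2.04 ± 0.88 (SE; edgeR adjusted p = 0.601), at low counts of 43 and 13 in KPC and 5 and 3 in wild type. Its groups did not overlap, and the KPC libraries differed 3.81-fold from each other. The class II list had a median of 0.73 over 6 tested genes. It was led by the invariant chain gene Cd74 at 10.5 and 3.89 CPM in KPC and 0.361 and 1.65 CPM in wild type. Class II genes are genes of macrophages too, and the part of such cells in these values was not tested. Of the 6, 5 were positive and 1 negative, and 2 (Cd74 and H2-Eb1) had an unadjusted p under 0.05, both higher in KPC, where 4.73% of all tested rows were. The negative one was Ciita, the class II activator gene, at 0.221 and 0.221 CPM in KPC and 0.380 and 0.268 CPM in wild type.

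Levels can be compared between the 10 genes only per length, here as mean CPM over the 4 libraries per kilobase of annotated exon. B2m was highest at 155 CPM per kilobase, then H2-D1 at 62.7, H2-K1 at 61.9, Tapbp at 22.98, Psmb10 at 18.4, Psmb8 at 8.03, Tap2 at 7.38, Tap1 at 2.71, Psmb9 at 0.775 and Nlrc5 at 0.185. Over the 4 libraries, the ranges of H2-D1 and H2-K1 overlapped, as did each neighbouring pair from Tapbp to Tap2, so the order within those runs is not settled. Psmb8 also overlapped with Tap1, and in wild type replicate 1 it was the lower of them, at 1.93 against 3.38 CPM per kilobase. B2m lay above all others, and Psmb9 and Nlrc5 did not overlap with any other gene. Counts run over whole intervals and not over exons alone: H2-D1 reads covered 2654 and 2865 bases in KPC and 4016 and 2099 in wild type, against 2102 exon bases.

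The mean of the centred log2 CPM values of the 10 genes was -0.05 and 0.21 in KPC and -0.14 and -0.02 in wild type. The 5 rows nearest to that mean profile among 10445 rows of at least 10 CPM were Gm14263, D2Wsu81e, Pwp1, Pabpn1 and Pdap1, at Euclidean distances of 0.0397 to 0.0594 over 4 libraries. The 10 genes themselves lay further from it, at 0.307 (H2-K1) to 1.94 (Psmb8), so the mean describes none of them closely. With 4 libraries such likeness is a description only.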

How the data were processed

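Single-read, poly-A RNA libraries were made with the TruSeq kit, per the labels' protocols. Per the submitters' processing notes the tools were TopHat2 2.0.3, bedtools, SAMtools 0.1.18 and FastQC 0.10.1 on mm10/GRCm38; their steps and settings are not given in the sources used here. The deposited tables have no header. The deposited count per gene interval was taken as a raw read count from its values (whole numbers, unequal totals). The deposited fraction of each interval covered equals covered bases over length and was used for description only. Reads in overlapping gene intervals can be counted in more than one row, and no strand is recorded.

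Counts of all 4 libraries were filtered with filterByExpr (minimum count 10), scaled by TMM (factors 0.988 to 1.02) and fitted with edgeR 4.0.16 in R 4.3.3 (group only, 2 residual degrees of freedom). The fit was tested on simulated data with a lower dispersion (spread beyond counting error) than the 0.103 estimated here. That test therefore does not show how the fit performs at the spread of these data. DESeq2 1.42.0 and limma 3.58.1 (voom) were alternatives. SE is the unshrunk log2 fold change over the square root of F. Counting error alone is covered by Poisson intervals. List sums use CPM of the library total, unscaled. Of 177 listed genes in 15 lists 176 had a row; Adgre1 was not matched. Exon lengths, strands and transcripts came from GENCODE M21 and promoters from RefSeq (GRCm38.p6). Members and lists were chosen with earlier results of these data known. Named genes were the 10 members, up to 4 per pathway list and 3 per cell list of smallest p, plus Psmb5, Psmb6 and Psmb7; of the cell lists a few are printed.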

Additional observations from a re-analysis of the deposited data

How the results depend on the processing

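None of the 10 class I genes passed an adjusted p of 0.05 under any alternative, which were RLE, upper quartile or no composition factors, both other count filters, DESeq2, limma voom, the replicate block and each library left out, and 2 added after seeing the data (protein-coding rows only, and Tapbp without Zbtb22 counts). Over all rows, edgeR called 0, DESeq2 called 627 (333 higher, 294 lower), and edgeR called 5 without wild type replicate 1, 835 without wild type replicate 2 (range 0 to 835 over left-out libraries). A left-out library leaves 1 group with a lone library, assumed to vary like the other group. The median log2 fold change of the 10 genes, 0.17 with all libraries, ran from 0.0075 without KPC replicate 2 and 0.0159 without wild type replicate 1 to 0.28 without wild type replicate 2. With a library left out the direction turned in H2-D1 (-0.84 to 0.32), Tapbp (-0.10 to 0.35), Psmb10 (-0.061 to 0.76) and Nlrc5 (-0.032 to 0.60); the cause was not tested. H2-K1, B2m, Tap1, Tap2, Psmb8 and Psmb9 kept their direction in every alternative tried. The labels number replicates 1 and 2 in both groups without saying that a number marks a shared animal or day. With the replicate block 0 rows and 0 class I genes were called, and the members' median was 0.18. In that edgeR fit the unadjusted p was 0.00659 for Psmb8 and 0.0511 for B2m, so that Psmb8 and not B2m lay under 0.05. Over all alternatives, 0 to 3 of the 10 genes had an unadjusted p under 0.05. The same-numbered libraries deviated from their group means with a correlation of 0.136 across rows. Psmb9 and Nlrc5 are limited by depth, with 13 and 35 counts in wild type replicate 2.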
